A study of Mus musculus with 15 samples.

Results

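The Notch pathway was followed through adipogenic culture of mouse embryonic fibroblasts (MEFs) by 9 of its genes, the 4 receptors Notch1, Notch2, Notch3 and Notch4, the ligands Jag1 and Jag2, and the target genes Hes1, Hey1 and Heyl. They were chosen by name, as a gene family and not by a measured value, though with earlier results of these data known. They are 9 of the 46603 genes in the count tables. The cells came from wild-type BALB/c embryos labelled 10.5 days old and were grown in DMEM with 10% fetal bovine serum. RNA-Seq was done on cells at day 0 (MEFD0), on untreated cells at day 3 and day 5 (MEFD3min and MEFD5min), and on cells at day 3 and day 5 that received an adipogenic cocktail (MEFD3plu and MEFD5plu), with 3 replicates per condition and 15 samples in all. The cocktail held 0.5 mM 3-isobutyl-1-methylxanthine, which raises cyclic AMP, 10 μg/mL insulin, 1 μM dexamethasone, a glucocorticoid, and 10 μM rosiglitazone, an activator of PPARγ. Per the study's methods, treated cells left the cocktail after day 3 and stayed in growth medium to day 5. MEFs are a primary, mixed culture, and in bulk RNA fewer cells of a type and less RNA per cell cannot be told apart.

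Notch receptors are single-pass surface proteins that bind Jagged or Delta-like ligands on a neighbouring cell. Ligand binding lets ADAM proteases and then gamma-secretase cut the receptor, and the freed intracellular domain enters the nucleus, where it joins the DNA-binding protein Rbpj and Maml coactivators and switches on target genes. The Hes and Hey genes, which encode basic helix-loop-helix repressors, are the best known of these targets. In mesenchymal cells the pathway is known for its part in the choice between staying a progenitor and differentiating, and in adipogenesis both inhibiting and permissive roles have been described. Transcript levels alone do not measure receptor cleavage.

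The samples held 24030558 to 37281126 counted reads, and no pair of replicates had identical counts. Summed markers of fibroblasts (6 of 6 past the count filter) lay at 17938 to 25462 CPM (reads scaled to library size) in MEFD3min and at 8154 to 11894 CPM in the other conditions, with 10439 to 11561 CPM in MEFD3plu. In MEFD3plu/MEFD3min 5 of the 6 were called lower, where 56.1% of all genes tested were called in either direction. Jag1 and Notch1 rose at day 3, as described below, and the part of these markers in that rise was not tested. Summed adipocyte markers (6 of 6) were at 39.5 to 59.8 CPM in the untreated conditions, 7321 to 9031 CPM in MEFD3plu and 9618 to 11364 CPM in MEFD5plu. Markers of macrophages (3 of 6 past the filter, Adgre1 at 0 in every sample), neural cells (2 of 5, Sox10 at 0), epithelium (1 of 4) and skeletal muscle (1 of 4, Myod1 at 0) summed to at most 13.3, 10.2, 1.19 and 2.11 CPM in any sample. Replicate 3 of MEFD3min stood apart for the receptors: its log2 CPM lay 0.71, 0.58 and 0.64 above the mean of its condition for Notch1, Notch2 and Notch3. The 1593 genes with the longest summed exons lay above it by a median of 0.13 in the same sample. In replicate 4 of MEFD3min the 3 receptors were at -0.40, -0.38 and -0.46 and the long genes at -0.13. For Notch3 the day 0 samples deviated by 0.81, 0.40 and -1.21. Deviations of replicate 4 fell with exon length in MEFD0, MEFD3min, MEFD3plu and MEFD5min (Spearman's correlation -0.30, -0.26, -0.22 and -0.24), and not in MEFD5plu (0.037). In MEFD5plu those of replicate 3 fell with it (-0.19), and Notch1, Notch2 and Notch3 were at -0.23, -0.17 and -0.39 in that sample. The part of these values in the results for Notch1, Notch2 and Notch3 was not tested. Results that rest on replicate 3 of MEFD3min are given with and without it.

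Of the 9 members, Notch1, Notch2, Notch3, Notch4, Jag1 and Hes1 passed the filter on low counts and were tested, and Jag2, Hey1 and Heyl did not pass. The main result among the members was a rise of the ligand Jag1 and of the receptor Notch1 in treated cells at day 3, where the effect of treatment was larger than at day 5. In MEFD3plu/MEFD3min, 2 of the 6 tested members were called at an adjusted p under 0.05, against 56.1% of all genes tested. In MEFD5plu/MEFD5min, Notch2, Notch3 and Hes1 were called, all lower in treated cells, 3 of 6 against 50.5% of all genes. The median log2 fold change of the 6 members was 0.28 at day 3 and -0.41 at day 5, beside -0.00057 and 0.010 over all genes. So many genes moved in these cultures that the share of members called is no result about the family, and the values of each gene are given below.

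**Figure D1:**
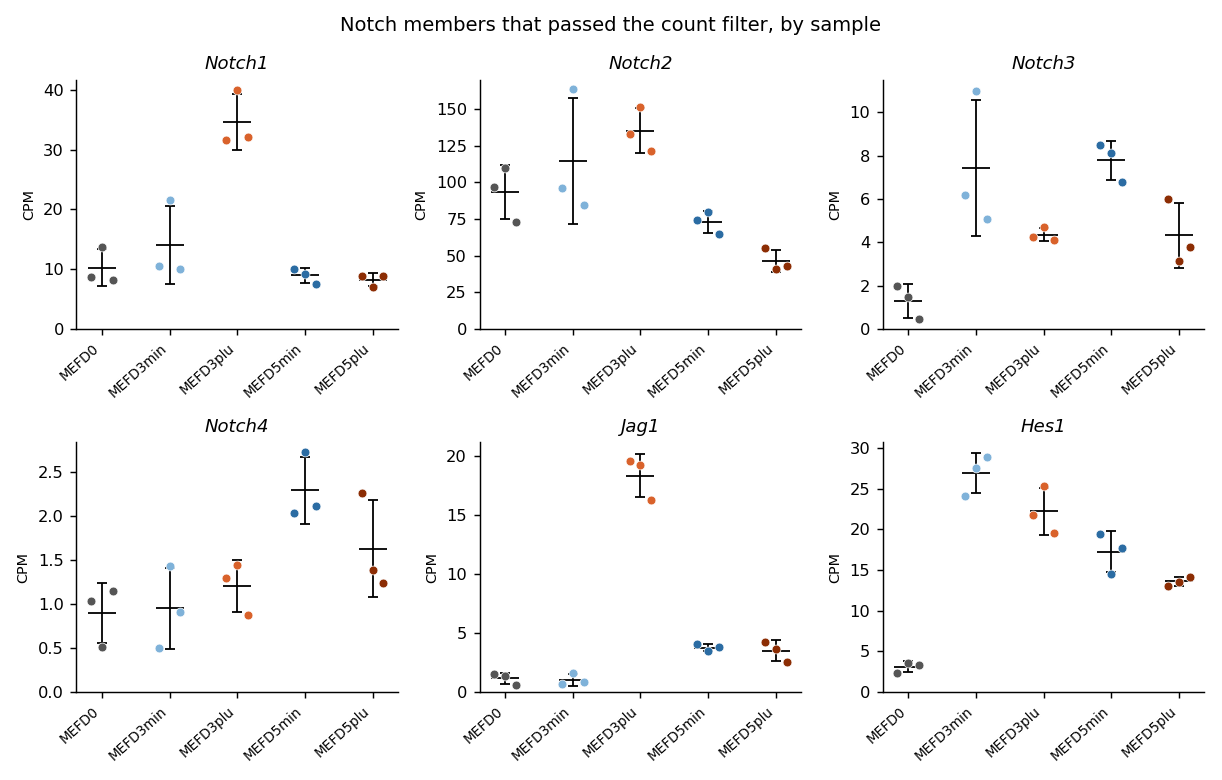
CPM (reads scaled to library size, linear axes from 0) of the 6 members that passed the filter, in the 5 conditions. Coloured points are samples, in the order replicate 1, 3 and 4, and black lines are the mean and SD (n = 3). Jag1 lay at 16.3 to 19.6 CPM in MEFD3plu and at 4.26 CPM or less in every other sample, and replicate 3 of MEFD3min is the high point for Notch1, Notch2 and Notch3.

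RefSeq promoter windows (GRCm38.p6) were at hand for 6 of the 9 members, Notch1 to Notch4, Jag1 and Jag2, and for Hey2, a further Hey gene described with the targets. The windows of Jag1 and Notch1 are shown because these genes had the clearest treated/untreated difference at day 3, and that of Hey2 because it had the largest day 5 difference among the Hes and Hey genes past the count filter. Each is written 5′ to 3′ on the strand of its gene, all 3 on the minus strand, and holds no base of an annotated exon of the gene. The Notch1 window lies inside the annotated span of its gene (chr2:26457903-26516663), so part of the annotated gene lies upstream of it. Capitals mark the core letters of the Rbpj binding site, TGGGAA on either strand.
Jag1 (chr2:137116645-137116770): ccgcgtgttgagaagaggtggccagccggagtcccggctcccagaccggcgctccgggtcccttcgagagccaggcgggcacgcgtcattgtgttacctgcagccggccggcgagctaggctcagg
Notch1 (chr2:26503825-26504072): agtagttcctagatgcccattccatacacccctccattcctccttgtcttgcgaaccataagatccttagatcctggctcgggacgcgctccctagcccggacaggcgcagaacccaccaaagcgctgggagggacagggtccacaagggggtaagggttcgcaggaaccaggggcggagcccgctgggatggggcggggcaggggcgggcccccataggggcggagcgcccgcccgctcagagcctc
Hey2 (chr10:30842802-30843033): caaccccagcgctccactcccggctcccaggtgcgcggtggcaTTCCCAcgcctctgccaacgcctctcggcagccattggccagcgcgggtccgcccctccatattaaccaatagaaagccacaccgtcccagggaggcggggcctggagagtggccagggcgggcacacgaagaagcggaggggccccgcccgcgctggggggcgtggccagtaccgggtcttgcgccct
In the full 250 bases before the RefSeq start, TGGGAA was found on either strand only for Hey2 among these 7 genes, at bases -207 to -202, where the match is on the opposite strand and extends to GTGGGAA. Of all 32851 windows of this length, 21.6% held TGGGAA and 5.42% held GTGGGAA. The letters CACNAG, known as the N-box of Hes proteins, were in the windows of Notch1, Notch2 and Notch3 (36.7% of all windows), and neither CACGTG (6.02%) nor the cyclic AMP response element TGACGTCA (1.55%) was in any of the 7. A match of letters is a description of the window and not a site.

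Notch2 was the main receptor transcript per length in every sample. Expressed as RPKM, which divides CPM by exon length in kilobases, Notch2 was at 8.65 ± 1.72 (SD, n = 3) in MEFD0. It was at 10.6 ± 3.98 RPKM in untreated and 12.5 ± 1.41 RPKM in treated cells at day 3, and at 6.75 ± 0.688 and 4.29 ± 0.703 RPKM at day 5. Its share of the summed RPKM of the 4 receptors was 89.7% ± 0.436 in MEFD0 and 76.7% ± 1.43 in MEFD5plu, with 84.2%, 80.1% and 78.3% in MEFD3min, MEFD3plu and MEFD5min. Each of the other receptors was below Notch2 in every sample.

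The other 3 receptors took different shares in the 5 conditions. Notch1 made up 15.5% ± 0.795 of receptor RPKM in MEFD3plu and 10.4% ± 1.36 in MEFD5plu, against 7.41%, 7.67% and 7.27% in MEFD0, MEFD3min and MEFD5min. Notch3 was at 1.60% ± 0.866 in MEFD0, 7.18% ± 0.354 in MEFD3min and 11.2% ± 0.580 in MEFD5min, and at 3.44% ± 0.150 in MEFD3plu and 9.34% ± 1.53 in MEFD5plu. The means of Notch4 lay between 0.928% and 3.55%. The share of Notch2 had an SD of at most 1.43 percentage points between replicates, replicate 3 of MEFD3min included, although its summed receptor RPKM was higher than in the other 2 samples of its condition. The small shares at day 0 varied more, from 0.731% to 2.46% for Notch3 and from 0.550% to 1.88% for Notch4. The summed RPKM of the 4 receptors was 9.64 ± 1.93 in MEFD0, 15.7 ± 1.78 in MEFD3plu and 5.60 ± 1.01 in MEFD5plu, and 12.7 ± 4.87 and 8.62 ± 0.887 in untreated cells of day 3 and day 5. These shares and sums are descriptions without a test.

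**Figure D2:**
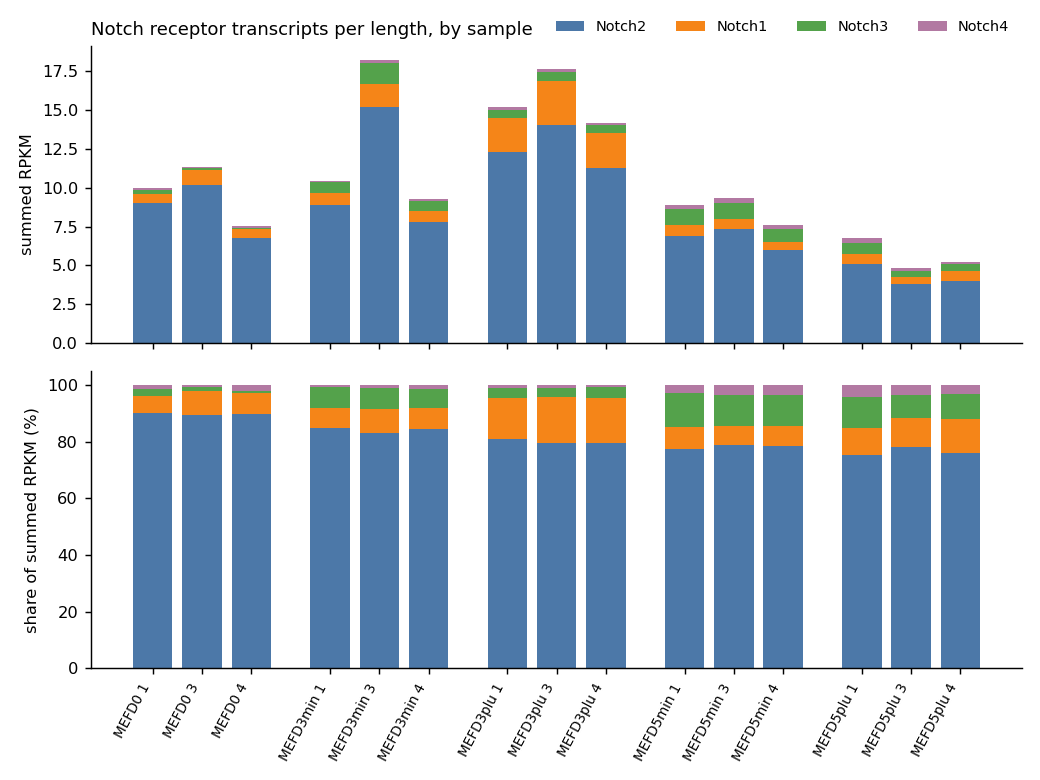
Receptor transcripts in each of the 15 samples: above, RPKM of Notch2, Notch1, Notch3 and Notch4 stacked to their sum, and below, the same as a share of that sum in percent. Notch2 holds the largest share in every sample, and the share of Notch1 is widest in MEFD3plu, at a mean of 15.5%.

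Jag1 (ENSMUSG00000027276, chr2:137081456-137116644 on GRCm38, minus strand) encodes a transmembrane ligand of the Notch receptors. Its counts in replicates 1, 3 and 4 were 43, 50 and 20 in MEFD0, 20, 57 and 24 in MEFD3min, 574, 615 and 577 in MEFD3plu, 144, 88 and 141 in MEFD5min, and 143, 113 and 83 in MEFD5plu. All samples of MEFD3plu were thus far above all others, and the treated and untreated samples of day 5 overlapped. In CPM, Jag1 was at 1.01 ± 0.518 in MEFD3min and 18.4 ± 1.83 in MEFD3plu, 17.8-fold higher (log2 fold change 4.15, SE 0.303, adjusted p = 3.30e-09). At day 5 it was at 3.75 ± 0.302 CPM untreated and 3.47 ± 0.891 CPM treated (log2 fold change -0.12, SE 0.274, adjusted p = 0.749). The day 3 difference exceeded that of day 5 by 4.27 on the log2 scale (SE 0.408, adjusted p = 2.87e-07).

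The order of mean Jag1 CPM was MEFD3plu, MEFD5min, MEFD5plu, MEFD0 and MEFD3min. MEFD3plu lay above MEFD5min (adjusted p = 7.73e-07, in a comparison where 62.7% of all genes were called) and MEFD5plu above MEFD0 (adjusted p = 0.000184, with 65.0% of all genes called), while MEFD5min and MEFD5plu (adjusted p = 0.749) and MEFD0 and MEFD3min (adjusted p = 0.814) did not differ beyond their spread. Within treated cells Jag1 fell by 2.40 from day 3 to day 5 on the log2 scale (SE 0.263, adjusted p = 6.66e-07), and within untreated cells it rose by 1.87 (SE 0.314, adjusted p = 0.000128). Per length, Jag1 in MEFD3plu (3.15 ± 0.314 RPKM) was near the level of Notch1 there (2.43 ± 0.332 RPKM), and in MEFD3min it was at 0.174 ± 0.0889 RPKM.

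Notch1 (ENSMUSG00000026923, chr2:26457903-26516663, minus strand) is the founding receptor of the family in mammals. The samples held 8.61, 13.8 and 8.26 CPM in MEFD0, 10.6, 21.6 and 9.99 CPM in MEFD3min, 31.5, 40.01 and 32.2 CPM in MEFD3plu, 10.1, 9.23 and 7.54 CPM in MEFD5min, and 8.91, 6.96 and 8.90 CPM in MEFD5plu. MEFD3plu lay above every sample of the other conditions, replicate 3 of MEFD3min included. Notch1 was 2.45-fold higher in MEFD3plu than in MEFD3min (log2 fold change 1.29, SE 0.246, adjusted p = 0.000244), and at day 5 the log2 fold change was -0.11 (SE 0.261, adjusted p = 0.749). The effects at the 2 days differed by 1.41 on the log2 scale (SE 0.357, adjusted p = 0.00368).

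From MEFD3plu to MEFD5plu, Notch1 fell by 2.06 on the log2 scale (SE 0.255, adjusted p = 2.61e-06). In the order of mean CPM, MEFD3plu differed from MEFD3min, and the neighbours MEFD3min, MEFD0, MEFD5min and MEFD5plu did not differ from the next in order beyond their spread (adjusted p = 0.125, 0.562 and 0.749). MEFD3min was called above MEFD0 without replicate 3 of MEFD0 (0.74, adjusted p = 0.0262) and without replicate 4 of MEFD3min (0.65, adjusted p = 0.03001). It was also called without a filter on low counts (0.48, adjusted p = 0.00143), where the SE was 0.133 against 0.252 with the filter. Without replicate 3 of MEFD3min this difference was 0.0061 and was not called. MEFD5min was nonetheless called lower than MEFD3min (log2 fold change -0.66, adjusted p = 0.0459), a call that rested on replicate 3 of MEFD3min, without which it was -0.20 (adjusted p = 0.440). The call was also lost without replicate 1, 3 or 4 of MEFD5min (adjusted p = 0.0558, 0.0841 and 0.148), with total counts alone (adjusted p = 0.0979) and with only the samples compared (adjusted p = 0.0925). Of the exon bases of Notch1, 9.76% lie opposite exons of 0610009E02Rik and Gm13568, and the strand setting of the counting is not given in the sources used here.

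Notch2 (ENSMUSG00000027878, chr3:98013527-98150361, plus strand) was the receptor with the highest level per length. The samples held 97.1, 110 and 73.1 CPM in MEFD0, 95.9, 164 and 84.3 CPM in MEFD3min, 133, 152 and 122 CPM in MEFD3plu, 74.1, 79.4 and 64.8 CPM in MEFD5min, and 54.9, 40.8 and 43.0 CPM in MEFD5plu. At day 3 the treated samples lay between the high replicate 3 and the other 2 untreated samples, while at day 5 all treated samples lay below all untreated ones. The log2 fold change was 0.24 (SE 0.200, adjusted p = 0.330) in MEFD3plu/MEFD3min and -0.65 (SE 0.204, adjusted p = 0.0132) in MEFD5plu/MEFD5min. Without replicate 3 of MEFD3min, Notch2 was called higher in treated cells at day 3, by 0.59 (adjusted p = 0.00358). The day 5 call was lost without replicate 3 or 4 of MEFD5plu (adjusted p = 0.0600 and 0.0514). The effects at the 2 days differed by 0.89 (SE 0.285, adjusted p = 0.0162).

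Between days, Notch2 fell by 1.55 from MEFD3plu to MEFD5plu on the log2 scale (SE 0.206, adjusted p = 5.90e-06), when the median of the same group of long genes changed by -0.22 and that of all genes by 0.063. In MEFD5plu/MEFD5min these medians were -0.14 and 0.010, and the part of exon length in the receptor values was not tested. The difference MEFD5min/MEFD3min was -0.66 (adjusted p = 0.0143), -0.31 without replicate 3 of MEFD3min (adjusted p = 0.116) and -0.58 without replicate 4 of MEFD5min (adjusted p = 0.0565). In the order of mean CPM, MEFD3plu, MEFD3min, MEFD0 and MEFD5min did not differ from their neighbours beyond the spread (adjusted p = 0.330, 0.211 and 0.161), and MEFD5plu lay below MEFD5min. MEFD3min was called above MEFD0 without replicate 4 of MEFD3min (0.48, adjusted p = 0.0389). It was also called without a filter (0.31, adjusted p = 0.00888), where the SE was 0.104 against 0.201 with the filter. Without replicate 3 of MEFD3min this difference was -0.049 (adjusted p = 0.807). MEFD5min was called below MEFD0 without a filter (-0.39, SE 0.104 against 0.201 with the filter, adjusted p = 0.00127). It was also called with only the samples compared (-0.34, adjusted p = 0.0411).

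**Figure D3:**
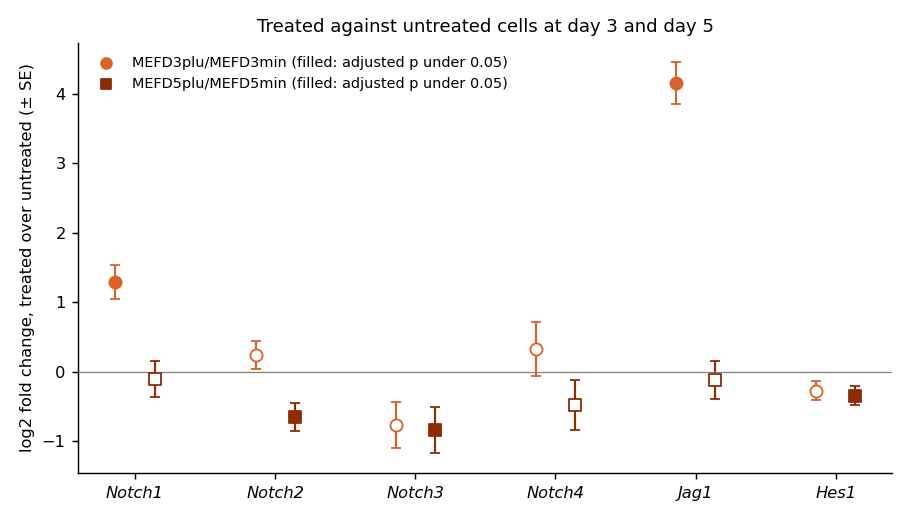
Log2 fold change of treated over untreated cells with its standard error for the 6 tested members, at day 3 (circles) and day 5 (squares), and filled symbols mark an adjusted p under 0.05. Jag1, at 4.15, and Notch1, at 1.29, are filled at day 3, and Notch2, Notch3 and Hes1 are filled below 0 at day 5.

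Notch3 (ENSMUSG00000038146, chr17:32120820-32166852, minus strand), a receptor best known from vascular smooth muscle and pericytes, was lowest at day 0. The samples held 1.99, 1.48 and 0.447 CPM in MEFD0, 6.20, 10.98 and 5.08 CPM in MEFD3min, 4.23, 4.70 and 4.12 CPM in MEFD3plu, 8.49, 8.10 and 6.79 CPM in MEFD5min, and 6.02, 3.16 and 3.77 CPM in MEFD5plu. Every later sample was above every day 0 sample, and the treated samples lay below the untreated ones on both days. In untreated culture it rose 5.79-fold by day 3 (log2 fold change 2.53, SE 0.374, adjusted p = 1.64e-05) and 6.05-fold by day 5 (log2 fold change 2.60, SE 0.374, adjusted p = 2.49e-05), both against MEFD0.

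In treated against untreated cells, Notch3 had a log2 fold change of -0.78 (SE 0.331, adjusted p = 0.0559) at day 3 and was called lower at day 5, by -0.85 (SE 0.331, adjusted p = 0.0419). The difference between these effects was 0.071 (SE 0.467, adjusted p = 0.918). When replicate number entered the fit as a block, Notch3 was called lower at day 3 (-0.74, adjusted p = 0.0286). So it was by DESeq2 (adjusted p = 0.0457), with only the samples compared (adjusted p = 0.0357) and without replicate 4 of MEFD3min (-0.99, adjusted p = 0.0171). Without a filter it was called too (adjusted p = 5.67e-05), with an SE of 0.180 against 0.331 with the filter. Without the high replicate 3 of MEFD3min, the day 3 difference was -0.38 and was not called. The day 5 call was lost without replicate 1 or 3 of MEFD5min or replicate 3 or 4 of MEFD5plu (adjusted p = 0.109, 0.0877, 0.160 and 0.127). In the order of mean CPM, only the step from MEFD5plu down to MEFD0 was called (adjusted p = 0.000682).

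Markers of pericytes and smooth muscle (7 of 9 past the filter, Kcnj8 at or under 3 counts in every sample) summed to 692 to 766 CPM in MEFD0, to 307 to 427 and 828 to 940 CPM in untreated cells of day 3 and day 5, and to 164 to 175 and 281 to 305 CPM in treated cells of these days. The sum was thus lower in treated than in untreated samples on both days, as Notch3 was, but high at day 0, where Notch3 was lowest. It was mostly Acta2, Tagln, Cspg4 and Pdgfrb, and its genes did not move together. At day 3, where 56.1% of all genes were called, Acta2, Tagln and Cspg4 were called lower in treated cells. Myh11 (1.91, adjusted p = 0.00709) and Pdgfrb (0.34, adjusted p = 0.0498) were called higher. At day 5, 4 of 7 were lower and Myh11 was higher (3.86, adjusted p = 1.85e-05), with 50.5% of all genes called. Myh11 and Rgs5 were low at day 0, at 0.0968 and 0.0389 CPM, and low over all samples, with a mean log2 CPM of -1.75 and -2.41. In MEFD3min/MEFD0, where Notch3 rose, 0 of the 7 were called higher and 3 lower (60.0% of all genes called). In MEFD5min/MEFD0, 3 were higher and 2 lower (46.4% of all genes called). Rgs5 was among the higher ones there (3.50, adjusted p = 0.00194), and Myh11 was not called (adjusted p = 0.806). The part of these markers in the Notch3 result was not tested. Of the exon bases of Notch3, 6.03% lie opposite exons of Gm17276.

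Notch4 (ENSMUSG00000015468, chr17:34564268-34588503, plus strand), a receptor known from endothelium, had the smallest mean share of receptor RPKM in each condition. The counts were 30, 19 and 41 in MEFD0, 16, 51 and 27 in MEFD3min, 38, 46 and 31 in MEFD3plu, 73, 70 and 78 in MEFD5min, and 76, 43 and 41 in MEFD5plu. The untreated day 5 samples were above all samples of day 0 and day 3, and the treated ones overlapped with them. Its log2 fold change was 1.36 in MEFD5min/MEFD0 (SE 0.372, adjusted p = 0.00647) and 1.25 in MEFD5min/MEFD3min (SE 0.371, adjusted p = 0.0114). The latter was 0.95 without replicate 1 of MEFD3min (adjusted p = 0.0580). Treated and untreated cells gave 0.33 (SE 0.385, adjusted p = 0.492) at day 3 and -0.48 (SE 0.354, adjusted p = 0.275) at day 5.

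In the order of mean Notch4 CPM, from MEFD5min through MEFD5plu, MEFD3plu and MEFD3min to MEFD0, no neighbours differed beyond their spread (adjusted p = 0.275, 0.310, 0.492 and 0.834). Endothelial markers (3 of 9 past the filter, Cldn5 at 0 and Erg and Tie1 at or under 3 counts in every sample) summed to 1.12 to 1.78 CPM in MEFD0, to 6.14 to 7.60 and 10.2 to 19.0 CPM in untreated cells of day 3 and day 5, and to 5.61 to 6.99 and 11.8 to 16.01 CPM in treated cells of these days. In MEFD5min most of this sum was Emcn, at 12.5 ± 4.40 CPM, while the general endothelial marker Pecam1 was at 0.120 ± 0.0648 CPM there. In MEFD0 the marker Cdh5 was at 0.840 ± 0.253 CPM. In MEFD3min/MEFD0, Emcn was called higher (adjusted p = 8.08e-10), Cdh5 lower (-1.21, adjusted p = 0.00771) and Vwf was not called (adjusted p = 0.157). Both the endothelial sum and Notch4 were higher at day 5 in untreated cells. In treated cells Notch4 was not called in MEFD5plu/MEFD3plu (adjusted p = 0.310) or MEFD5plu/MEFD0 (adjusted p = 0.0512, and 0.0249 without a filter). The endothelial marker Cdh5 was higher in MEFD5min/MEFD0 (1.23, adjusted p = 0.00410) and lower in MEFD5plu/MEFD0 (-0.92, adjusted p = 0.0283). It was also lower in MEFD5plu/MEFD5min (-2.14, adjusted p = 7.18e-05) and had 0 counts in MEFD3plu. The part of endothelial cells was not tested.

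The other Jagged ligand, Jag2 (ENSMUSG00000002799, chr12:112907819-112929776, minus strand), was near the floor. It had 1, 0 and 2 counts in MEFD0, 4, 6 and 0 in MEFD3min, 1, 3 and 0 in MEFD3plu, 6, 5 and 8 in MEFD5min, and 2, 1 and 6 in MEFD5plu. In these libraries 3 counts correspond to 0.0795 to 0.117 CPM. In the fit without a filter, no difference in Jag2 was called, with the lowest adjusted p, 0.0608, in MEFD5min/MEFD0, so that none was detectable at this depth. Among the other canonical ligands, Dll3 and Dll4 did not pass the filter either. Dll1, the only other canonical ligand tested, is named outside the naming rule given below, since it was not called on both days. It was called lower in MEFD3plu than in MEFD3min (log2 fold change -3.28, SE 0.548, adjusted p = 6.86e-05) and had -0.62 at day 5 (adjusted p = 0.229).

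Hes1 (ENSMUSG00000022528, chr16:30064384-30067796, plus strand) encodes a repressor that many cell types switch on when Notch is cleaved, and that other pathways also control. It had 2.30, 3.55 and 3.32 CPM in MEFD0, 24.2, 27.6 and 29.0 CPM in MEFD3min, 21.8, 25.4 and 19.6 CPM in MEFD3plu, 19.5, 14.5 and 17.8 CPM in MEFD5min, and 13.1, 13.6 and 14.1 CPM in MEFD5plu. The step from day 0 to every later condition was the main feature, with no overlap. Hes1 rose 8.72-fold in MEFD3min/MEFD0 (log2 fold change 3.12, SE 0.157, adjusted p = 2.54e-11) and 5.60-fold in MEFD5min/MEFD0 (log2 fold change 2.49, SE 0.157, adjusted p = 1.27e-09).

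Between treated and untreated cells the differences of Hes1 were small beside this step. The log2 fold change was -0.28 in MEFD3plu/MEFD3min (SE 0.135, adjusted p = 0.0941) and -0.38 without replicate 3 of MEFD3plu (adjusted p = 0.0433). It was -0.35 in MEFD5plu/MEFD5min (SE 0.139, adjusted p = 0.0471), a call that was lost without replicate 1 or 4 of MEFD5min or replicate 1, 3 or 4 of MEFD5plu (adjusted p = 0.199, 0.0708, 0.118, 0.0998 and 0.0749). From day 3 to day 5 Hes1 fell by 0.64 in untreated cells (SE 0.137, adjusted p = 0.00114) and fell by 0.71 in treated cells (SE 0.139, adjusted p = 0.000281), both on the log2 scale. Unlike Jag1 and Notch1, Hes1 had no higher mean in MEFD3plu than in MEFD3min.

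The order of mean Hes1 CPM was MEFD3min, MEFD3plu, MEFD5min, MEFD5plu and MEFD0. MEFD3min and MEFD3plu did not differ beyond their spread, and MEFD3plu was called above MEFD5min (log2 fold change 0.36, adjusted p = 0.0295). That call was lost without replicate 1 or 3 of MEFD3plu or replicate 3 or 4 of MEFD5min (adjusted p = 0.0525, 0.152, 0.133 and 0.0537) and when libraries were scaled by total counts alone (adjusted p = 0.0792). The step from MEFD5plu down to MEFD0 had an adjusted p of 3.23e-09.

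Hey1 (ENSMUSG00000040289, chr3:8663359-8667256, minus strand) had 3, 8 and 1 counts in MEFD3plu, 6, 3 and 1 counts in MEFD5min and 0 in each of the other 9 samples. Heyl (ENSMUSG00000032744, chr4:123233556-123249875, plus strand) had 1, 3 and 4 counts in MEFD3plu, 1 count in replicate 3 of MEFD3min and in replicate 4 of MEFD5plu, and 0 in the other 10 samples. Reads of Hey1 thus came from MEFD3plu and MEFD5min and those of Heyl mainly from MEFD3plu, at levels that overlap the floor of 3 counts per library. Both were tested only in the fit without a filter, and no fold is given against conditions at 0. There Hey1 was called higher in MEFD3plu/MEFD3min (adjusted p = 0.0113, with 32.0% of all genes called) and lower in MEFD5plu/MEFD5min (adjusted p = 0.0225, with 28.0%), and these effects differed (adjusted p = 0.000332, with 26.9%). Against MEFD0, where 36.6% were called, MEFD3plu was higher for Hey1 (adjusted p = 0.00818) and Heyl (adjusted p = 0.0346), and Heyl was not called in MEFD3plu/MEFD3min (adjusted p = 0.199). These calls rest on at most 8 counts per sample. Hes5 and Nrarp, 2 further direct targets, had 0 and at most 4 counts in any sample.

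Hey2, the remaining Hey gene, is not among the 9 members and is named here after its values were seen. Its counts were 1, 1 and 1 in MEFD0, 116, 126 and 117 in MEFD3min, 78, 103 and 120 in MEFD3plu, 52, 32 and 40 in MEFD5min, and 267, 252 and 287 in MEFD5plu. MEFD5plu lay above all other samples and MEFD5min below those of day 3. Against the floor of 3 counts per library in MEFD0, Hey2 was at least 41.7-fold higher in MEFD3min and at least 92.9-fold higher in MEFD5plu. In MEFD5plu/MEFD5min the log2 fold change was 2.71 (SE 0.166, adjusted p = 9.11e-10), in MEFD3plu/MEFD3min it was -0.26 (SE 0.155, adjusted p = 0.174), and the difference between the days was -2.96 (SE 0.227, adjusted p = 2.12e-08). Hes1 and Hey2 thus shared the low day 0 level and differed in treated cells at day 5.

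**Figure D4:**
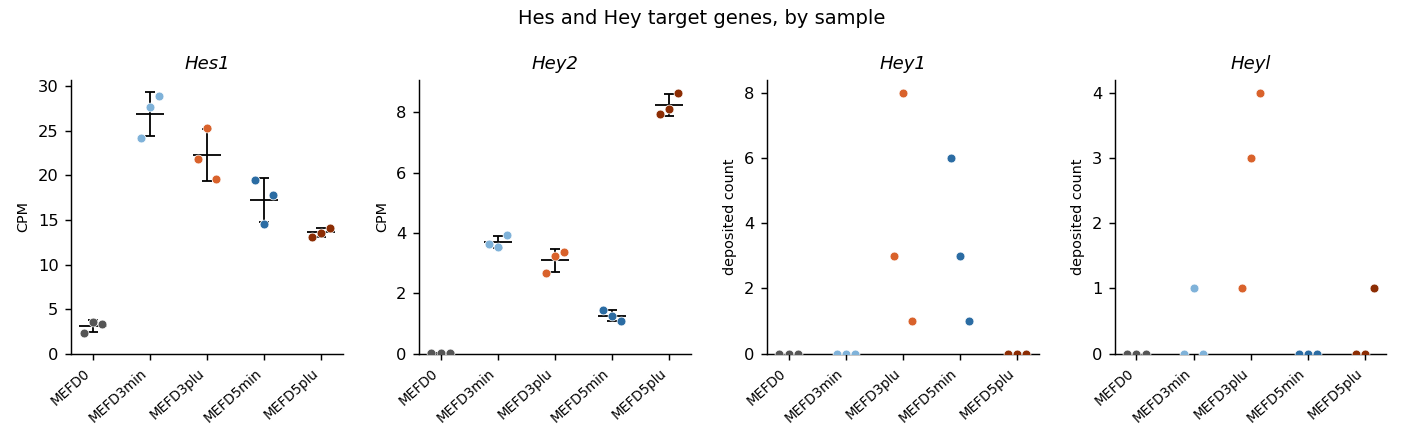
The Hes and Hey genes in the 5 conditions: CPM of Hes1 and Hey2 with mean and SD (n = 3), and the deposited counts of Hey1 and Heyl, which did not pass the filter, as points alone. All axes are linear and start at 0, Hey2 is highest in MEFD5plu, and no sample has more than 8 counts of Hey1 or 4 of Heyl.

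Over time in culture, the tested members gave further counts of calls. In MEFD3min/MEFD0, 2 of 6 (Notch3 and Hes1, both higher) were called against 60.0% of all genes, and in MEFD5min/MEFD0, 4 of 6 (Notch3, Notch4, Jag1 and Hes1, all higher) against 46.4%. In MEFD5min/MEFD3min, 5 of 6 were called against 42.8%, with Notch4 and Jag1 higher and Notch1, Notch2 and Hes1 lower. Only 3 were called without replicate 3 of MEFD3min or without replicate 4 of MEFD5min, and 4 with total counts alone or with only the samples compared. In MEFD5plu/MEFD3plu, Notch1, Notch2, Jag1 and Hes1 were lower, 4 of 6 against 63.0%, while Notch3 (-0.0080, adjusted p = 0.986) and Notch4 (0.44, adjusted p = 0.310) did not pass the test. For the difference between the day 3 and day 5 effects of treatment, 3 of 6 (Jag1, Notch1 and Notch2) were called against 48.5%.

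The rest of the pathway was read from a list of 58 further genes in 8 roles, of which 52 were tested. In MEFD3plu/MEFD3min, 18 were called higher and 16 lower (65.4% of those tested, against 56.1% of all genes), and in MEFD5plu/MEFD5min 16 higher and 15 lower (59.6% against 50.5%). The median log2 fold change of the list was -0.075 at day 3 and -0.024 at day 5. The list as a whole therefore leaned to neither side. Genes called on both days are named below, at most 3 per role by size and above a mean log2 CPM of 3.

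Among non-canonical ligands and modulators (7 genes, 6 tested), 1 was higher and 3 lower at day 3, and 1 higher and 2 lower at day 5. Dlk1, a Delta-like protein known as the preadipocyte factor that holds back adipogenesis, had 9.88 ± 1.14 CPM in MEFD0, 15.3 ± 2.003 in MEFD3plu and 15.97 ± 2.64 in MEFD5plu, beside 49.0 ± 10.7 in MEFD3min and 22.1 ± 3.59 in MEFD5min. It was lower in treated cells, with a log2 fold change of -1.68 at day 3 (SE 0.163, adjusted p = 1.34e-07) and -0.47 at day 5 (SE 0.162, adjusted p = 0.0230). The day 5 call was lost without replicate 1 of MEFD5min or replicate 3 or 4 of MEFD5plu (adjusted p = 0.135, 0.0794 and 0.102). Ccn3, a secreted protein reported to bind Notch1, was higher in treated cells, by 2.01 (adjusted p = 2.74e-10) and 0.76 (adjusted p = 6.79e-05).

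Of the 5 glycosyltransferases, which set ligand preference by adding sugars to the receptor, 3 were higher and 1 lower at day 3 and 3 higher at day 5, and none called on both days was above the level set for naming. Outside that rule, and after their values were seen, Lfng and Mfng are named because both encode Fringe enzymes and were called higher on both days. At day 3, Lfng had 2 counts in each sample of MEFD3min and 20 to 23 in MEFD3plu (adjusted p = 4.76e-06), and the effects of the 2 days had no called difference (adjusted p = 0.851). At day 5 it was at 0.207 ± 0.0459 CPM in MEFD5min and 1.98 ± 0.219 CPM in MEFD5plu (log2 fold change 3.21, SE 0.329, adjusted p = 5.36e-07). Mfng had 0 to 1 counts in MEFD3min and 1 to 6 in MEFD3plu (adjusted p = 0.0483), a call lost without a filter, with the replicate block, with only the samples compared, and without replicate 1 or 3 of MEFD3min or of MEFD3plu (adjusted p = 0.0515 to 0.258). It had 0 to 2 counts in MEFD5min and 54 to 69 counts in MEFD5plu, where it was at 1.94 ± 0.270 CPM. Both remained low transcripts beside the receptors.

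Of furin, Adam10 and Adam17, the proteases that cut the receptor before gamma-secretase, furin (Furin) was called on both days in opposite directions, with log2 fold changes of 0.74 at day 3 (adjusted p = 0.00101) and -0.91 at day 5 (adjusted p = 0.000234). Of the 7 gamma-secretase genes, 2 were higher and 4 lower at day 3, and 1 higher and 3 lower at day 5. Psen2, a catalytic subunit, was higher on both days (0.97 and 1.34, adjusted p = 5.69e-07 and 5.01e-08). The scaffold subunit Aph1b was lower (-0.91 and -1.001, adjusted p = 3.29e-07 and 1.60e-07), as was the receptor-docking subunit Ncstn (-0.66 and -0.35, adjusted p = 0.000178 and 0.0231). The day 5 call of Ncstn was lost without replicate 1 or 3 of MEFD5min or replicate 3 or 4 of MEFD5plu (adjusted p = 0.0768, 0.0567, 0.108 and 0.0707).

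Of 14 genes of trafficking and turnover, 13 were tested, with 6 higher and 4 lower at day 3 and 3 higher and 2 lower at day 5. The deltex genes encode ubiquitin ligases, some of which act on Notch. Dtx3l, also known as a partner of Parp9 in interferon-responsive and DNA damage settings, was at 4.59 ± 0.802 CPM in MEFD0, 4.77 ± 0.343 in MEFD3plu and 110 ± 4.53 in MEFD5plu, beside 79.9 ± 3.36 in MEFD3min and 38.9 ± 10.2 in MEFD5min. Its log2 fold change was -4.06 at day 3 (adjusted p = 2.74e-12) and 1.4996 at day 5 (adjusted p = 2.66e-07). Dtx2 (1.24 and 0.55, adjusted p = 1.07e-08 and 0.000193) and Dtx4 (0.96 and 1.18, adjusted p = 8.92e-07 and 2.06e-07) were higher on both days.

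In the nuclear complex and its corepressors (12 of 12 tested), 3 were higher and 2 lower at day 3, and 5 higher and 5 lower at day 5. Rbpj, the DNA-binding partner of cleaved Notch, was at 360 ± 25.7 CPM in MEFD0, 111 ± 3.73 in MEFD3plu and 237 ± 12.4 in MEFD5plu, beside 273 ± 17.5 in MEFD3min and 396 ± 8.59 in MEFD5min. It was lower in treated cells on both days, with log2 fold changes of -1.30 (SE 0.0783, adjusted p = 2.74e-10) and -0.74 (SE 0.0771, adjusted p = 6.15e-07), and the day 3 effect exceeded that of day 5 (difference -0.56, adjusted p = 0.000448). Thus at day 3 the transcripts of a ligand and a receptor were higher and that of their nuclear partner lower in the same samples of this mixed culture. The corepressor Spen was higher at day 3 (0.91, adjusted p = 0.00185) and lower at day 5 (-0.85, adjusted p = 0.00464). The coactivator Maml3 was higher on both days (0.70 and 0.44, adjusted p = 0.000249 and 0.0154), with the day 5 call lost without replicate 4 of MEFD5min or replicate 1 of MEFD5plu (adjusted p = 0.0903 and 0.0753) and with total counts alone (0.27, adjusted p = 0.148).

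Of 7 other target genes, 5 were tested, with 2 higher and 1 lower at day 3 and 2 higher and 2 lower at day 5. Myc, a growth regulator that Notch and many other signals control, was higher at day 3 (1.56, adjusted p = 1.05e-09) and lower at day 5 (-0.83, adjusted p = 4.34e-06), and these effects differed (2.39, SE 0.146, adjusted p = 1.19e-09). The cyclin gene Ccnd1 was lower on both days (-1.07 and -0.61, adjusted p = 8.38e-10 and 1.95e-06). The Notch targets on this list therefore went in different directions within a day.

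**Figure D5:**
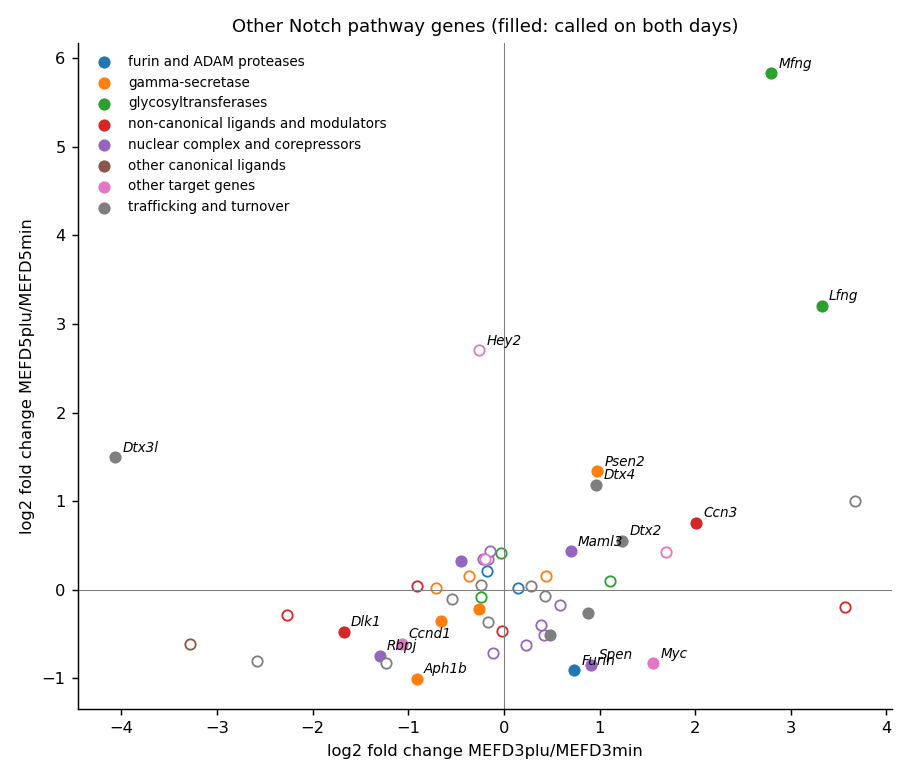
Log2 fold change of the 52 tested further pathway genes in MEFD3plu/MEFD3min (horizontal axis) and MEFD5plu/MEFD5min (vertical axis), coloured by role, with filled points for genes called on both days. Rbpj, Dlk1, Ccnd1 and Aph1b lie at the lower left, Dtx3l lies at -4.06 on the horizontal and 1.4996 on the vertical axis, and Hey2, an open point, is at 2.71 on the vertical axis.

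For each tested member, the genes with the most similar log2 CPM over the 15 samples were taken among the 9585 or 9586 other genes whose mean log2 CPM reached 3. Pearson's r is given as a description, since the samples share conditions and libraries. Among the nearest genes were Sppl2b, Adcy6 and Fgfr1 for Notch1 (r = 0.979, 0.977 and 0.973), Crebbp and Yap1 for Notch2 (r = 0.988 and 0.988), and Loxl2, Tcf25 and Slc25a28 for Notch3 (r = 0.924, 0.919 and 0.916). They were Rin2, Noct and Sdc4 for Jag1 (r = 0.968, 0.967 and 0.960) and Tmed4, Pdzrn3 and Ctsf for Hes1 (r = 0.988, 0.984 and 0.981). Notch4, with few reads, had no close neighbour, and its nearest genes were Bhlhe40, Wsb1 and Gpi1 (r = 0.795, 0.776 and 0.768).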

How the data were processed

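RNA-Seq libraries of 15 MEF samples were analysed, 3 per condition. Per the labels, reads were aligned to GRCm38 with TopHat2 2.1.0 and counted with HTSeq. The authors deposited raw counts per Ensembl gene, not normalized. The labels name an unstranded library kit and the methods a stranded one, the counting's strand setting is not given in the sources used here, and a label age of 10.5 days was taken as given. Names came from GENCODE M21 (46005 of 46603 genes matched).

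In R 4.3.3, edgeR 4.0.16 kept 15997 genes (filterByExpr, default minimum count of 10) and scaled libraries by TMM. CPM use these scaled totals, and RPKM also the union of annotated exons. The quasi-likelihood test (glmQLFit and glmQLFTest) gave all comparisons from 1 fit of 15 samples without covariates, with calls at an adjusted p (Benjamini-Hochberg) under 0.05. SE is the log2 fold change divided by the root of F. The study's methods describe results as means of at least 3 independent experiments. They do not say whether this covers the RNA-Seq replicates, so p-values measure the spread between these samples. The floor of 3 counts per library covers counting error only. The code was tested on simulated data.

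Replicates are numbered 1, 3 and 4 in every condition. Deviations of same-numbered samples from their condition means correlated by over 0.1 in each pair only for MEFD3plu/MEFD3min (r = 0.143, 0.228 and 0.360), so the numbers were read as pairs there, from the data alone, and a replicate block was an alternative.

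Alternatives were DESeq2 1.42.0, its size factors, total counts, no filter, 10 counts in every sample, the compared samples alone, the block and each sample left out. The members and lists were chosen with earlier results of these data known. All 9 members are named, and of the 58 further genes those called in both treated/untreated comparisons and with a mean log2 CPM from 3 up, at most 3 per role by absolute log2 fold change. Dlk1 was to be named in any case. One gene near Notch2 in pattern is not reported here.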

Additional observations from a re-analysis of the deposited data

Results flagged for a closer look

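The effect of treatment differed between day 3 and day 5 for 3 of the 6 tested members by a test of the difference itself, the treatment by day interaction in edgeR, where 48.5% of all genes were called. For Jag1 the difference, day 3 minus day 5, was 4.27 on the log2 scale (SE 0.408, adjusted p = 2.87e-07), with every treated sample above every untreated sample at day 3 and overlapping samples at day 5. For Notch1 it was 1.41 (SE 0.357, adjusted p = 0.00368), again with no overlap at day 3 and overlap at day 5. For Notch2 it was 0.89 (SE 0.285, adjusted p = 0.0162), with overlap at day 3 and all treated samples below all untreated ones at day 5. These 3 differences were called in every alternative run.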

How the results depend on the processing

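The calls of Jag1 and Notch1 in MEFD3plu/MEFD3min, and of Notch3 and Hes1 in both MEFD3min/MEFD0 and MEFD5min/MEFD0, kept their direction and stayed called in every alternative. Without a filter, the members called numbered 4 in MEFD3plu/MEFD3min and 4 in MEFD3min/MEFD0, in place of 2 each, with all 9 then tested. Notch3 and Hey1 were added in the first and Notch1 and Notch2 in the second. Over all genes, 32.0% were called in the first. No such share was worked out for the second or the fits below, so these counts are no result about the family. Hey1 was also called without a filter in other comparisons, among them MEFD5plu/MEFD5min (adjusted p = 0.0225) and MEFD5min/MEFD0 (adjusted p = 0.0226). With 1 sample left out, the members called numbered 2 to 3 in MEFD3plu/MEFD3min, 0 to 2 in MEFD5plu/MEFD5min, 2 to 4 in MEFD3min/MEFD0 and 3 to 5 in MEFD5min/MEFD3min. The further pathway genes called numbered 20 to 30 in MEFD5plu/MEFD5min. The count of 0, from edgeR, arose without replicate 3 or without replicate 4 of MEFD5plu, where 1 and 2 members had an unadjusted p under 0.05, and it was 1 without replicate 1 of MEFD5min. DESeq2 on all samples called 3 members in MEFD5plu/MEFD5min. The cause was not tested.

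Values that changed sign were uncalled before and after. With 1 sample left out, log2 fold changes ranged from -0.30 to 0.071 for Jag1 in MEFD5plu/MEFD5min, and in MEFD3min/MEFD0 from -0.049 to 0.48 for Notch2, -0.34 to 0.41 for Notch4 and -0.63 to 0.14 for Jag1. They ranged from -0.33 to 0.083 for Notch1 in MEFD5min/MEFD0, and for Notch3 from -0.15 to 0.46 in MEFD5min/MEFD3min and -0.33 to 0.17 in MEFD5plu/MEFD3plu. The difference between days ranged from -0.14 to 0.47 for Notch3 and -0.034 to 0.18 for Hes1. Notch4 in MEFD3min/MEFD0 was -0.018 with total counts alone, and Notch3 in MEFD5plu/MEFD3plu was 0.0018 with at least 10 counts in every sample. Total counts alone moved the median of all genes by -0.16 in MEFD5plu/MEFD5min, -0.12 in MEFD3min/MEFD0 and 0.18 in the difference between days.

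With the replicate block, 3 members were called in MEFD3plu/MEFD3min, Notch3 being the added one, and 3, 2, 4, 5 and 4 in MEFD5plu/MEFD5min, MEFD3min/MEFD0, MEFD5min/MEFD0, MEFD5min/MEFD3min and MEFD5plu/MEFD3plu, as without it. Over all genes the block gave 9452 calls in MEFD3plu/MEFD3min against 8967, and in that comparison every sample correlated best with its own number. Depth limits Jag2, Hey1 and Heyl, whose calls without a filter rest on 8 counts or fewer per sample, and 3 samples per condition limit the rest.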
